A study of Rattus norvegicus with 110 samples.

Results

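Kidney RNA of F2 male rats with a CCl4-treated F0 grandsire was compared with that of F2 males whose ancestors had received vehicle alone. The members were chosen by the group number of each male in the kidney count table, which gave 6 libraries of group 17 and 7 of group 11, and so 13 of the 27 kidney libraries and of the 110 libraries in the series. All animals were Sprague Dawley rats. CCl4 (carbon tetrachloride) is a solvent that the liver turns into a toxic radical, and its repeated dosing is a standard way to scar the rodent liver. F0 and F1 males had received olive oil or 50% CCl4 in olive oil by oral gavage, 3 times a week for 6 weeks, and were mated with untreated females after 2 weeks of recovery. In group 11 neither the F0 nor the F1 sire had been given CCl4. In group 17 the F0 sire had been given CCl4 and the F1 sire olive oil. The other kidney groups were group 14, with a treated F1 sire, and group 20, in which both generations had been treated, with 7 males each. The F2 males of all 4 groups received only olive oil, at 0.5 mL/kg 3 times a week, and the left kidney was taken on day 39. The comparison therefore asks whether kidney gene expression differed 2 generations after the exposure, in males that were themselves never given CCl4.

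Several features limit these groups as a model. The treatment was given to F0 sires, and the 7 males of group 11 descended from 6 such sires and the 6 males of group 17 from 5. Males are named by group and number, as the study numbered them. Males 1 and 2 of group 17 were litter mates, and males 4 and 5 of group 11 shared an F0 sire. A moribund male of group 17 had been left out by the study. Necropsies fell on 4 dates, with 2, 2, 1 and 2 males of group 11 and 2, 1, 1 and 2 of group 17. The whole organ piece was sequenced, so that fewer cells of a type and less RNA per cell cannot be told apart.

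The kidney filters blood in the glomeruli and reclaims solutes along the tubule, and it is a major target of adrenal hormones. Corticosterone, the main glucocorticoid of the rat, is released in a daily rhythm and under stress. It binds the glucocorticoid receptor, which switches on a set of genes that includes Per1, Tsc22d3, Fkbp5 and Zbtb16. Kidney cells also hold a circadian clock, in which the activators Bmal1 (Arntl) and Clock drive the Per, Cry and Nr1d genes, which in turn repress the activators. Immediate early genes such as Fos and Egr1 encode transcription factors that are induced within minutes by growth factors, calcium or tissue handling.

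Library totals lay between 21961746 and 35055218 estimated counts over the 27 kidney libraries. The libraries carried kidney markers: Lrp2, the endocytic receptor megalin of the proximal tubule, had normalized counts of 79404 to 137311 in groups 11 and 17, and Nphs1, which encodes the podocyte protein nephrin, 2066 to 3216. In the liver of the same males both ranged lower, from 165 to 1195 for Lrp2 and from 34.3 to 99.9 for Nphs1. Normalized counts here are counts divided by the library size after TMM scaling, on the scale of an average library. The libraries of male 1 of group 17, male 10 of group 20 and male 2 of group 11 stood apart, with median correlations with the other libraries of 0.947, 0.954 and 0.964 against 0.970 or more elsewhere, and the main counts are also given without them. Library total, genes detected, the share of the 100 most abundant genes and 9 other library measures did not separate groups 11 and 17 after adjustment over the 12 tests (smallest adjusted p = 0.238, exact permutation test). Most of the other measures were summed levels of marker lists that held only 1 or 2 genes each.

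No gene passed the test. The quasi-likelihood F test of edgeR was applied to 18374 genes and called 0 (0%) at the threshold of 0.1 on the adjusted p, of which the smallest was 0.783. At an unadjusted p under 0.05 there were 1081 genes, or 5.88% of those tested, where an even spread of p-values would place 919 in each interval of 0.05. Of these, 603 (3.28%) had higher and 478 (2.6%) lower levels in group 17. Exact permutation of the 13 libraries gave 990 genes at p under 0.05 (5.39%), with a smallest adjusted p of 0.714. DESeq2 called 3 genes, and limma-voom with sample quality weights 0, with 1701 at an unadjusted p under 0.05. Without the 3 libraries that stood apart, edgeR called 0 and had 1592 genes at an unadjusted p under 0.05, of which 889 were higher in group 17.

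**Figure D1:**
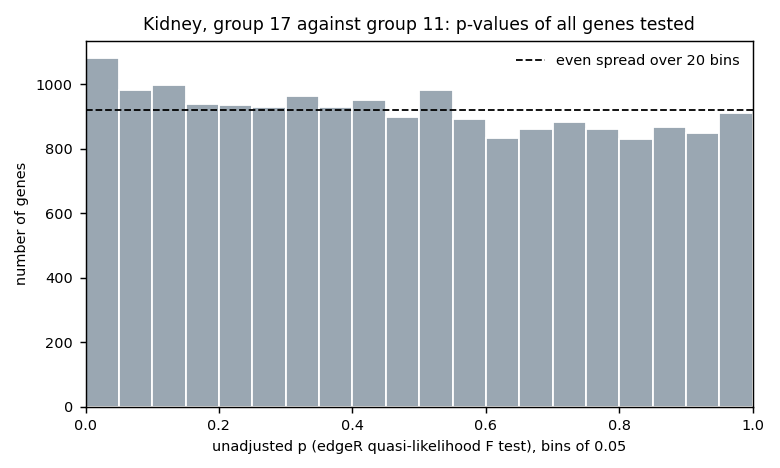
Number of genes (vertical axis) by unadjusted p of edgeR's quasi-likelihood F test (horizontal axis, intervals of 0.05) for kidney group 17 against group 11, with a line at the number an even spread would give. The interval nearest 0 holds 1081 genes and is the tallest, and the others hold 831 or more.

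The precision of this comparison can be read from the intervals. Among 12880 genes whose mean normalized count exceeded 50, the standard error of the log2 fold change had a median of 0.109, and the 95% confidence interval reached 0.22 to either side of the estimate at the median gene and 0.45 at the 90th percentile. The median log2 fold change over all genes was 0.01. The p-values measure the spread between males, some of which were relatives.

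Groups 11 and 17 did not overlap at all in 27 genes (0.147%), with 12 genes (0.0653%) higher and 15 (0.0816%) lower in group 17. The genes nearest to the threshold include some without a symbol in the sources used here. ENSRNOG00000013090.7 had normalized counts of 169 to 358 (median 233) in group 11 and 200 to 1306 (median 678) in group 17. Its log2 fold change was 1.5 ± 0.34 (SE, n = 6 and 7, edgeR adjusted p = 0.783, exact permutation p = 0.00874), and 5 of 6 males of group 17 were above the highest of group 11. Male 7 of group 17 lay within the range of group 11. DESeq2 called this gene in kidney (adjusted p = 0.0440). It was called by edgeR in the liver of the same males, where its level rose by 2.96 ± 0.56 (SE) on the log2 scale (edgeR adjusted p = 0.011), with 72.0 to 215 in group 11 and 282 to 2154 in group 17. ENSRNOG00000029543.4 showed a difference of like size in kidney, with 318 to 963 (median 417) against 744 to 2370 (median 1303) and a log2 fold change of 1.52 ± 0.38 (SE, edgeR adjusted p = 0.783). In liver its log2 fold change was 1.92 (edgeR adjusted p = 0.246), and it was not called.

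On the side of lower levels, ENSRNOG00000049944.2 had the smallest p of all genes. Its normalized counts were 598 to 822 (median 767) in group 11 and 419 to 587 (median 509) in group 17, with no overlap and a log2 fold change of -0.54 ± 0.12 (SE, edgeR unadjusted p = 8.72e-05, adjusted p = 0.783, exact permutation p = 0.00117). It was called with the necropsy date as a block (edgeR adjusted p = 0.0890) and by DESeq2 (adjusted p = 0.0454). ENSRNOG00000014341.6 separated the groups by a smaller margin, with 302 to 390 against 262 to 297 and a log2 fold change of -0.23 ± 0.06 (SE).

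St6galnac3, a sialyltransferase that adds sialic acid to glycolipids, had normalized counts of 2208 to 2538 (median 2360) in group 11 and 1566 to 2053 (median 1838) in group 17. The groups did not overlap, and the permutation p was 0.000583, the smallest that 6 against 7 libraries allow in this exact test. The log2 fold change was -0.39 with a 95% confidence interval of -0.57 to -0.20 (edgeR adjusted p = 0.783). On the 4 necropsy dates taken singly it differed by -0.39, -0.35, -0.17 and -0.51, below 0 on each. St6galnac3 and, among the genes described next, Ankrd37, Pptc7, Sema4g, Rnf144a, Kank2, Bcl3 and Rassf3 are on the study's kidney list, chosen for F0 treatment with these libraries, so their separation is fixed in part by that choice.

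Ankrd37, an ankyrin repeat gene induced by hypoxia-inducible factor, was likewise lower in every male of group 17, with 115 to 180 (median 155) against 188 to 244 (median 214) in group 11 and a log2 fold change of -0.53 ± 0.14 (SE, edgeR adjusted p = 0.783). Vegfa, the other hypoxia-induced gene with an identifier and a secreted growth factor of blood vessels, had a log2 fold change of 0.07 ± 0.05 (SE). It was at 0.03 without male 10 of group 17 and at 0.09 without its male 9. Ankrd37 and Vegfa are 2 of the 11 listed hypoxia-induced genes, and Ankrd37 was the 1 of them at an unadjusted p under 0.05, where 2.6% of all genes were with lower levels. Pptc7, a phosphatase of the mitochondrial matrix, ranged from 1368 to 1664 (median 1618) in group 11 and from 987 to 1516 (median 1322) in group 17, with a log2 fold change of -0.28 ± 0.07 (SE). Sema4g, a membrane-bound semaphorin, ranged from 820 to 1357 (median 945) against 348 to 905 (median 638), with a log2 fold change of -0.64 ± 0.17 (SE). For both genes the groups overlapped in part.

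Among the genes of smallest p with a symbol and higher counts in group 17, Rnf144a and Kank2 showed no overlap. Rnf144a, a ubiquitin ligase, had 187 to 267 (median 217) in group 11 and 282 to 386 (median 301) in group 17, a log2 fold change of 0.54 ± 0.14 (SE, edgeR adjusted p = 0.783). Kank2, an adaptor protein of focal adhesions, had 996 to 1138 (median 1059) against 1221 to 1425 (median 1260), a log2 fold change of 0.28 ± 0.07 (SE). Its liver log2 fold change was 0.53 (edgeR adjusted p = 0.117). Each group 17 male was thus above each group 11 male for both genes in kidney.

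Bcl3, a nuclear cofactor of NF-kappaB, had 76.9 to 124 (median 106) in group 11 and 100 to 197 (median 174) in group 17, a log2 fold change of 0.59 ± 0.15 (SE). Males 4 and 7 of group 17 lay within the range of group 11, and the within-date differences were 0.70, -0.02, -0.13 and 1.11. Rassf3, a Ras association domain gene, had 1249 to 1423 against 1392 to 1944, a log2 fold change of 0.26 ± 0.07 (SE), with male 4 of group 17 alone inside the range of group 11.

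**Figure D2:**
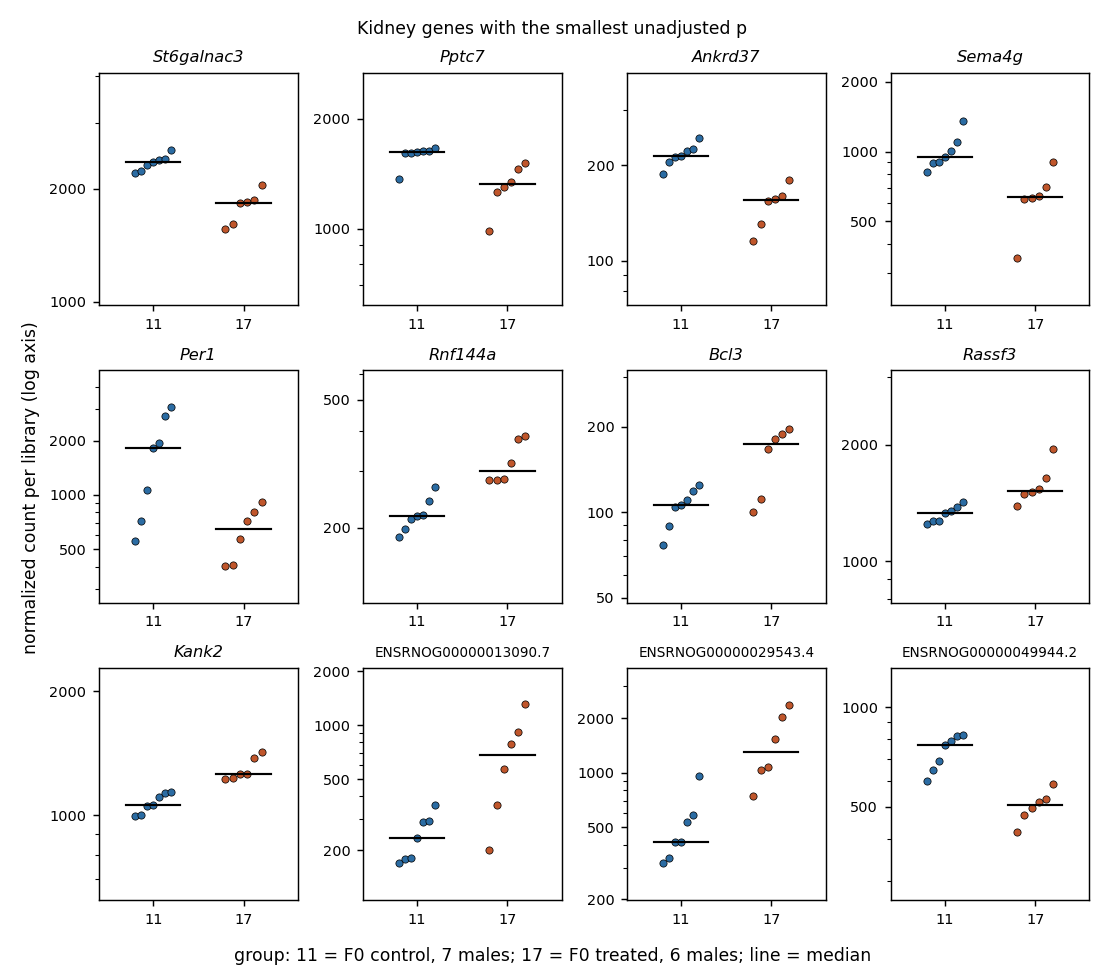
Normalized count (vertical axes, log scale) of 12 of the genes with the smallest p in kidney, 1 panel per gene, with a point for each male of groups 11 and 17 and a line at the group median. The groups do not overlap for St6galnac3, Ankrd37, Rnf144a, Kank2 and ENSRNOG00000049944.2, and none of the 12 genes passed the adjusted threshold of the main edgeR test. DESeq2 called ENSRNOG00000013090.7 and ENSRNOG00000049944.2, and edgeR with the necropsy date as a block called the latter.

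The glucocorticoid-induced genes were examined next, since Zbtb16, a zinc finger repressor strongly induced by glucocorticoids, is the gene the study singled out for kidney. Zbtb16 had normalized counts of 348 to 1463 (median 742) in group 11 and 26.9 to 943 (median 120) in group 17. Within group 17 the males were far apart: males 1, 2, 7 and 10 had 37.1, 26.9, 81.8 and 158, below every male of group 11, while males 4 and 9 had 943 and 665, within its range. The log2 fold change was -1.26 with a 95% confidence interval of -2.66 to 0.14 (edgeR adjusted p = 0.883). Without adjustment, edgeR gave p = 0.0755 and the exact permutation test on log2 counts p = 0.0239 for the same 13 libraries. Both tests treated males 1 and 2 of group 17 as independent. These were litter mates of necropsy date 1 and had the lowest values of the group. Within dates the difference was -4.16, 0.29, -2.49 and -1.45, and leaving out 1 library at a time gave fitted values from -1.98 (without male 4 of group 17, edgeR unadjusted p = 0.00977) to -1.01 (without male 2 of group 17, edgeR unadjusted p = 0.144).

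Of the 16 genes on the glucocorticoid list, 7 had an identifier in the sources used here. None was called (background 0%), 5 had an unadjusted p under 0.05 with lower levels in group 17, where 2.6% of all genes did, and 6 of 7 log2 fold changes were below 0, with a median of -0.70 against 0.01 over all genes. These 7 have an identifier because the study listed them for an F0 effect in the liver of the same males or in these kidneys, so their direction is not independent evidence. The same holds for the members of every other list below, which could be read only where the study had listed them in at least 1 of those organs. The count rested on single libraries. It was 2 of 7 without male 5 of group 11 or without male 1, 2 or 10 of group 17. It was 3 without male 7 of group 17, 6 without its male 4, and 3 without the 3 libraries that stood apart (median -0.90).

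Per1, which is both induced by glucocorticoids and part of the clock, had 551 to 3079 (median 1828) in group 11 and 403 to 909 (median 643) in group 17. The log2 fold change was -1.43 ± 0.40 (SE, edgeR adjusted p = 0.783, exact permutation p = 0.0192). In group 11 the males of necropsy dates 2 and 4 had 1828 to 3079 and those of dates 1 and 3 had 551 to 1066. The within-date differences accordingly were -0.14, -2.02, -0.23 and -1.98, so that the difference between the groups lay on 2 of the 4 dates. The hour of necropsy is not given for single animals in the sources used here, and its part in these values was not tested.

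Tsc22d3, which encodes the anti-inflammatory leucine zipper protein GILZ, had 1537 to 3540 (median 2509) against 816 to 2375 (median 1341), a log2 fold change of -0.70 ± 0.30 (SE). Fkbp5, a co-chaperone of the glucocorticoid receptor, had 2976 to 5054 (median 4003) against 1440 to 4091 (median 2517), a log2 fold change of -0.58 ± 0.27 (SE). For both, 4 of 6 males of group 17 lay below the lowest of group 11. Klf9, a Kruppel-like transcription factor, had 2144 to 3523 (median 2924) against 1014 to 2833 (median 2170), a log2 fold change of -0.45 ± 0.19 (SE). Cdkn1a, the cell cycle inhibitor p21, had 279 to 811 (median 401) against 135 to 326 (median 213), a log2 fold change of -1.01 ± 0.47 (SE). Lpin1, a phosphatidate phosphatase, was the exception, with 172 to 306 against 140 to 295 and a log2 fold change of 0.11 ± 0.15 (SE), which was 0.05 without male 2 of group 11 and 0.24 without male 1 of group 17. The lowest male was not the same for each gene, since in group 17 male 2 was lowest for Zbtb16, Tsc22d3, Fkbp5 and Cdkn1a, male 10 for Per1 and male 1 for Klf9 and Lpin1.

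The genes whose kidney levels followed Zbtb16 most closely over the 27 libraries were Frmd4b (Pearson r = 0.934), Zhx3 (0.910), Wdr33 (0.884), Map3k6 (0.865) and Yeats2 (0.863), as a description over libraries that share group, date and tissue. The search covered the 12880 genes with a mean normalized count over 50, with or without a symbol. Frmd4b, Wdr33, Map3k6 and Yeats2 are on the study's kidney list, so their differences are fixed in part by that choice, and Zhx3 is on its liver list. Their log2 fold changes between groups 17 and 11 were -0.38, -0.55, -0.30, -1.06 and -0.31 in that order, and none passed the adjusted threshold. Map3k6, a stress-activated kinase, had the widest difference, with 107 to 255 (median 138) against 30.5 to 136 (median 58.3).

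The immediate early genes had estimates on the other side of 0. Of 16 listed, 3 had an identifier, and all 3 had an unadjusted p under 0.05 with higher levels in group 17, where 3.28% of all genes did. None was called, and the median log2 fold change was 1.28. Fos is on the study's kidney list and Egr1 and Ier3 on its liver list, both chosen for an F0 effect, so the share is fixed in part by that choice. The count was 1 of 3 without male 10 of group 17, and 2 of 3 without the 3 libraries that stood apart. Fos, a subunit of the AP-1 transcription factor, had 19.8 to 79.5 (median 46.1) in group 11 and 39.0 to 203 (median 99.8) in group 17, a log2 fold change of 1.28 ± 0.46 (SE, edgeR adjusted p = 0.810, exact permutation p = 0.0192). In group 17, 5 of 6 males were above the highest of group 11, with male 9 as the exception. Egr1, a zinc finger factor, had 166 to 693 (median 280) against 345 to 2030 (median 809), a log2 fold change of 1.43 ± 0.54 (SE, edgeR adjusted p = 0.838). Ier3, a stress response gene, differed less, at 0.27 ± 0.13 (SE).

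**Figure D3:**
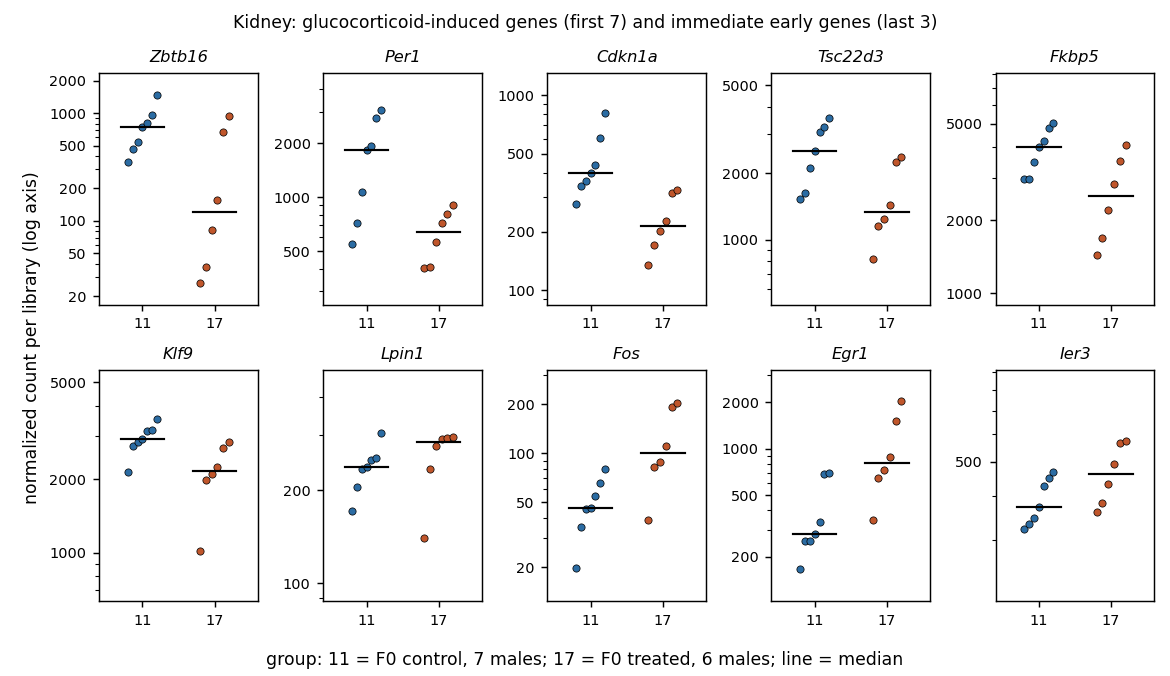
Normalized count in kidney (vertical axes, log scale) of 7 glucocorticoid-induced genes (Zbtb16, Per1, Cdkn1a, Tsc22d3, Fkbp5, Klf9 and Lpin1) and 3 immediate early genes (Fos, Egr1 and Ier3), with a point for each male of groups 11 and 17 and a line at the median. The group 17 median is the lower one for the first 6 genes and the higher one for Lpin1 and the immediate early genes, and the groups overlap in every panel.

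Of 20 clock genes, 9 had an identifier. None was called, 1 had an unadjusted p under 0.05 with higher and 3 with lower levels in group 17, where 3.28% and 2.6% of all genes did, and the median log2 fold change was 0.12. These 4 of 9 became 2 without male 4 of group 11 or male 2 of group 17, 6 without male 7 of group 17, and 3 without the 3 libraries that stood apart. The median was 0.07 without male 7 of group 17 and 0.16 without its male 10. Per3, a repressor of the clock loop, had 146 to 259 (median 220) in group 11 and 266 to 331 (median 294) in group 17, with no overlap and a log2 fold change of 0.48 ± 0.20 (SE, edgeR adjusted p = 0.838). The estimates for Dbp, an output transcription factor (0.40 ± 0.22, SE), and Nr1d1, the repressor REV-ERB alpha (0.51 ± 0.31, SE), were on the same side, and neither had an unadjusted p under 0.05 with all libraries. These estimates moved with single libraries. Nr1d1 was at 0.27 without male 9 of group 17 and 0.69 without male 7 of it (unadjusted p = 0.0249), and Dbp at 0.26 without male 2 of group 17 and 0.49 without male 2 of group 11 (unadjusted p = 0.0421). Usp2, a clock-controlled deubiquitinase, had 564 to 1236 (median 922) against 379 to 617 (median 535), a log2 fold change of -0.76 ± 0.24 (SE), with 4 of 6 males of group 17 below the lowest of group 11. Arntl, the activator itself, had a log2 fold change of -0.21 ± 0.10 (SE). Per1 and Per3 thus had estimates of opposite sign. Cry1, Cry2 and Nr1d2, further repressors of the loop, had log2 fold changes of -0.22, 0.12 and 0.19, each with an unadjusted p over 0.05 with all libraries. Without male 7 of group 17 Cry1 was at -0.43 (unadjusted p = 0.0224) and Cry2 at 0.07, and without male 9 of group 17 Cry1 was at -0.12.

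**Figure D4:**
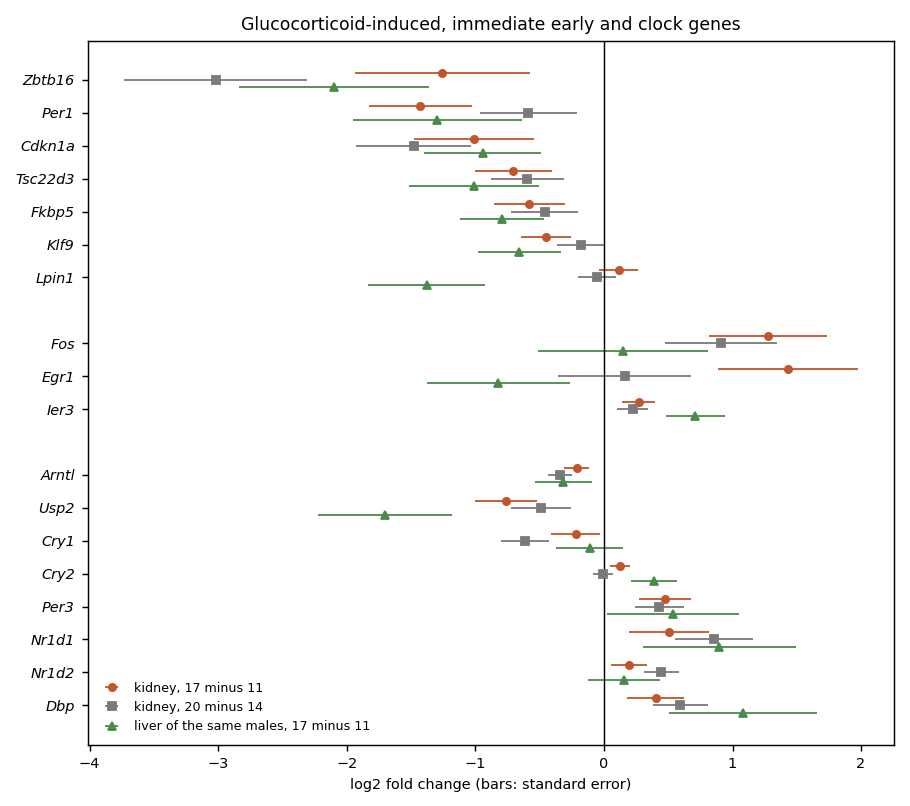
Log2 fold change with standard error (horizontal axis) of the glucocorticoid-induced, immediate early and clock genes (vertical axis) in 3 comparisons, kidney group 17 against 11, kidney group 20 against 14 and liver group 17 against 11. Zbtb16 lies below 0 in all 3, at -1.26, -3.02 and -2.10, while Egr1 lies at 1.43, 0.16 and -0.82.

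The remaining lists held few members near the threshold, and none of their members was called. Among ribosome biogenesis genes, 15 of 32 had an identifier and 3 of these had an unadjusted p under 0.05 with lower levels, namely Nop58 (-0.16 ± 0.06, SE), a core protein of the small nucleolar particles, Nolc1 (-0.12 ± 0.05, SE), a nucleolar phosphoprotein, and Utp4 (-0.17 ± 0.08, SE), of the small subunit processome. Over all genes 2.6% were lower at that p. The count of 3 was 1 without male 10 of group 17, 2 with DESeq2's size factors or with length offsets, and 3 without the 3 libraries that stood apart. It was also 2 without male 1, 4, 5, 9 or 10 of group 11 or without male 1, 2 or 9 of group 17. The median of the 15 was -0.04, and Nolc1 did not overlap between the groups (1862 to 2070 against 1605 to 1845). Of 24 histone demethylase genes, 8 had an identifier, and Riox1, a ribosomal oxygenase, was the only 1 of them at an unadjusted p under 0.05 with all libraries, with 256 to 277 against 210 to 255, no overlap and a log2 fold change of -0.22 ± 0.08 (SE). The count was 3 without male 1 of group 17 (2 higher and 1 lower), and 2 without male 9 of group 11, without male 4 of group 17, with length offsets or without the 3 libraries that stood apart. The 4 DNA methylation genes with an identifier had a median log2 fold change of 0.10 and none at an unadjusted p under 0.05. Without male 2 of group 11 the median was 0.06 and 1 gene was lower at that p (Tet2, -0.42, unadjusted p = 0.0467), and without the 3 libraries that stood apart the median was 0.18 and 1 gene was lower. Leaving out single libraries gave medians from 0.02 (without male 7 of group 17) to 0.22 (without male 1 of group 17). Nor was an unadjusted p under 0.05 found for Ppargc1a, the only fasting gene with an identifier (-0.11), or for the xenobiotic and oxidative stress list, with 2 members tested (median 0.05, and -0.30 without the 3 libraries that stood apart). The median of that list was -0.29 without male 1 of group 17 and 0.28 without male 7 of group 11.

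Kidney tubule injury genes were read from 3 of 10 members. Cdkn1a is given above. Havcr1, which encodes the injury marker KIM-1, had 30.01 to 387 (median 53.7) in group 11 and 31.8 to 95.1 (median 50.6) in group 17. Its log2 fold change of -0.76 ± 0.53 (SE) rested on male 4 of group 11 and was 0.16 without it. Lcn2, the lipocalin NGAL, had 57.6 to 115 against 2.22 to 96.2, a log2 fold change of -0.46 ± 0.43 (SE), which was -0.21 without male 4 of group 17. Neither had an unadjusted p under 0.05.

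Markers of kidney segments and other cells were available for few lists. Trpm6, the magnesium channel of the distal convoluted tubule, had 644 to 1230 (median 1011) in group 11 and 503 to 824 (median 767) in group 17, a log2 fold change of -0.48 ± 0.15 (SE, edgeR adjusted p = 0.783, exact permutation p = 0.0227). It was the only member of its list of 6 with an identifier, so the share of that segment was not tested by other genes. Trpm6, Foxi1 and Ehd3 are on the study's kidney list, chosen for F0 treatment with these libraries, and their lower values are fixed in part by that choice. Foxi1, the regulator of intercalated cells, had a log2 fold change of -0.24 ± 0.11 (SE). Of the endothelial markers, Ehd3, which marks glomerular endothelium, had -0.46 ± 0.16 (SE) and Kdr, the VEGF receptor, -0.04 ± 0.11 (SE). Lrp2, Nphs1, the macrophage gene C1qb and the adipocyte gene Cidec had log2 fold changes of -0.06, 0.03, -0.16 and 0.16, with no unadjusted p under 0.05. Leaving out single libraries gave C1qb from -0.28 (without male 1 of group 17) to -0.05 (without male 7 of group 17), and Cidec from 0.08 (without male 1 of group 17) to 0.23 (without male 2 of group 11). The summed CPM of each of these 7 lists overlapped between the groups, for example 22.7 to 40.8 against 17.3 to 28.5 for the distal convoluted tubule and 2794 to 4529 against 2739 to 4696 for the proximal tubule. Each sum held only 1 or 2 genes, those named above, so it repeats their values on another scale. No listed marker of thick limb, collecting duct, inner medulla, pericytes, urothelium, adrenal cortex, hepatocytes or blood had an identifier, and nor did the listed fibrosis, cell cycle, interferon, heat shock or renin-angiotensin genes, so their part was not tested.

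The study's own list of 66 kidney genes for F0 treatment was chosen with all 4 groups, these 13 libraries included, and its values here are a description. None of the 66 was called between groups 17 and 11, while 25 had an unadjusted p under 0.05 with higher and 36 with lower levels (92.4% of the list, against 5.88% of all genes), a share that the choice of the list fixes in part. In all, 28 estimates lay above 0 and 38 below, between -1.26 for Zbtb16 and 1.28 for Fos, and 6 genes (9.09%, against 0.147% of all genes) did not overlap between the groups. The members with the largest p by edgeR were Cplane2, Ncs1, Zbtb16 and Frzb, with exact permutation p-values of 0.088, 0.0583, 0.0239 and 0.0297. Frzb, a secreted Wnt antagonist, had 864 to 1355 (median 983) against 1053 to 1305 (median 1236), and Ncs1, a neuronal calcium sensor, 905 to 1139 against 1042 to 1371. The study had chosen the list by DESeq2 with the treatment of each generation as terms, among genes of at least moderate expression. DESeq2 was not run with those terms here, so the numbers of called genes do not test whether the list can be reproduced. When F0 and F1 treatment were fitted as terms over the 27 libraries by edgeR, 2 genes of this list were called. These were Dcun1d2, a cofactor of cullin neddylation (log2 fold change -0.25, edgeR adjusted p = 0.0323), and Krt80, an epithelial keratin (-0.31, edgeR adjusted p = 0.0973). Between groups 17 and 11 alone, Dcun1d2 had 254 to 314 against 296 to 352 in group 11, and Krt80 597 to 803 against 770 to 990. The 1503 tested genes of the study's liver list for F0 treatment had a median log2 fold change of 0.00, with 10.2% at an unadjusted p under 0.05. That share was 6.45% without male 10 of group 11, 12.4% without male 4 of group 17 and between these without each of the other libraries.

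The same F0 contrast in males with a treated F1 sire, group 20 against group 14, shares no library with the first. F0 sires are shared between the contrasts, however, so it is not an independent repeat. It gave 0 called genes (0%), a smallest adjusted p of 0.595 and 780 genes (4.25%) at an unadjusted p under 0.05 by edgeR, 2.31% higher and 1.93% lower in group 20, and DESeq2 called 8. Zbtb16 showed its widest kidney difference here, with 65.4 to 1446 (median 608) in group 14 and 22.6 to 121 (median 66.1) in group 20, a log2 fold change of -3.02 ± 0.71 (SE, edgeR adjusted p = 0.711). DESeq2 called it (adjusted p = 0.0180). All 7 males of group 20 were also below the lowest male of group 11, which had 348. The glucocorticoid list had 3 of 7 members at an unadjusted p under 0.05 with lower levels (median -0.59), the clock list 4 of 9 with higher and 3 with lower levels (median -0.01), and the immediate early list 1 of 3 with higher levels (median 0.22). Fos had a log2 fold change of 0.91 and Egr1 of 0.16. ENSRNOG00000013090.7, at 1.5 in the first contrast, had -0.33 here, and ENSRNOG00000029543.4, at 1.52 there, had -0.83.

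The interaction of F0 and F1 treatment tested whether the F0 difference depended on the treatment of the F1 sire. By edgeR it called 0 genes (0%), with a smallest adjusted p of 0.9999 and 395 genes (2.15%) at an unadjusted p under 0.05, of which 1.12% were above and 1.03% below 0, and DESeq2 called 1. For ENSRNOG00000013090.7 the interaction was -1.83 and for Zbtb16 -1.76, neither past the adjusted threshold.

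In the liver of the same males, group 17 against group 11 gave 52 genes called by edgeR (0.274% of those tested), of which 37 (0.195%) rose and 15 (0.0789%) fell. Kidney and liver libraries come from the same animals and dates, so their values are set side by side only. Acer2, an alkaline ceramidase, fell by 1.04 on the log2 scale in liver (edgeR adjusted p = 0.0779). In kidney it had 3425 to 4321 (median 3904) in group 11 and 2266 to 3597 (median 3029) in group 17, a log2 fold change of -0.39 ± 0.11 (SE, edgeR adjusted p = 0.783, exact permutation p = 0.00291), with 5 of 6 males below the lowest of group 11. Ahr, the receptor for aromatic pollutants, fell by 1.01 on the log2 scale in liver (edgeR adjusted p = 0.094) and had a kidney log2 fold change of 0.10 ± 0.10 (SE). Ski, a repressor of TGF-beta signalling, rose in liver by 0.63 (edgeR adjusted p = 0.094) and had 0.09 ± 0.09 (SE) in kidney. Leaving out single libraries gave kidney Ahr from 0.05 (without male 4 of group 17) to 0.17 (without its male 9). Kidney Ski then ran from 0.06 (without male 10 of group 11) to 0.16 (without male 1 of group 17). Acer2, Ahr and Ski belong to a list of 9 exemplary and stellate cell genes that the study named from the liver, with 0 called in kidney, 1 at an unadjusted p under 0.05 (Acer2, lower), where 2.6% of all kidney genes were lower at that p, and a median of 0.07. The count was 2 without male 4 or male 9 of group 17. Zbtb16 was not called in liver, with a log2 fold change of -2.10 (edgeR adjusted p = 0.172), and 6 of the 7 glucocorticoid genes had an unadjusted p under 0.05 with lower liver levels (median -1.01), where 3.93% of all liver genes did and 9.66% had higher levels. The ribosome biogenesis list had 8 of 15 such members in liver. The members of both lists were read because the study had listed them for F0 treatment in liver, so these liver counts are fixed in part by that choice.

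The first 4 principal components of the 27 kidney libraries held 21.2, 12.2, 9.2 and 4.5% of the variance of the 1000 most variable genes. Group 17 and group 11 differed by 0.65 on PC1 (exact permutation p = 0.936), by -2.62 on PC2 (p = 0.508), by 5.33 on PC3 (p = 0.0216) and by 0.87 on PC4 (p = 0.428), as mean scores in the exact test over 1716 splits. The adjusted p of PC3 over the 4 components was 0.0862, under the threshold of 0.1 used for genes. The PC3 scores overlapped, with -8.87 to 2.50 in group 11 and -3.29 to 4.37 in group 17. The sign of a component is arbitrary, and components of the same number need not match between separate decompositions, so the following values are not the same quantity. With the components built from the 13 libraries alone, PC3 differed by 8.495 (adjusted exact permutation p = 0.0186). With the 500 most variable genes PC3 differed by 4.59 (adjusted exact permutation p = 0.0699). On log2 CPM PC3 differed by 7.00 (adjusted exact permutation p = 0.268). With all tested genes PC3 differed by -3.09 (adjusted exact permutation p = 0.656), and the smallest p was that of PC2, which differed by -8.68 (exact permutation p = 0.0425, adjusted p = 0.170). ENSRNOG00000047746.1, the gene that led PC1, took between 0.0421 and 5.07% of the counts of a library in groups 11 and 17, with libraries at both ends in each group.

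**Figure D5:**
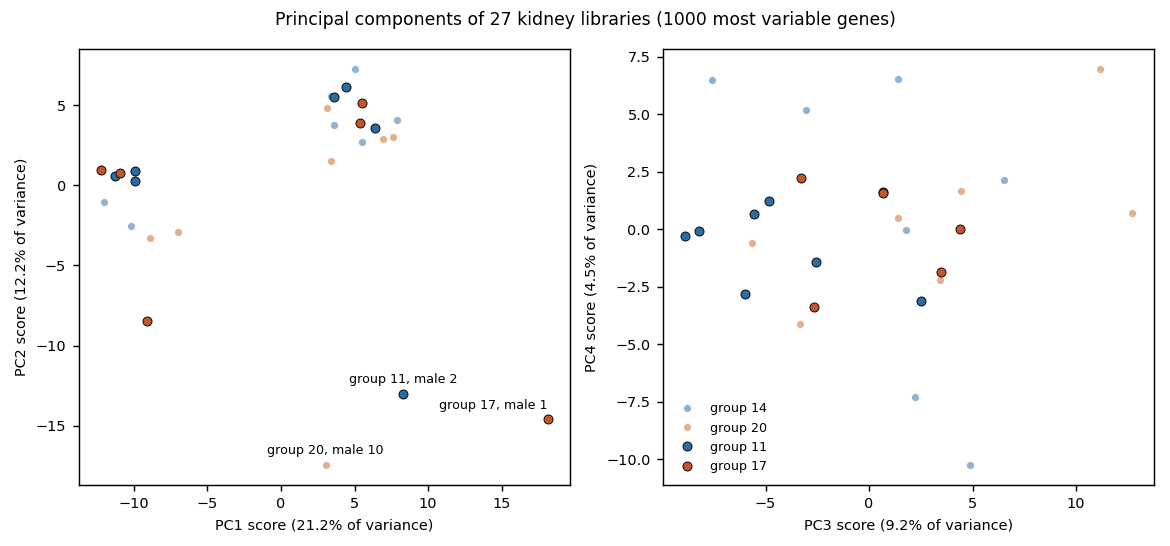
Scores of the 27 kidney libraries on PC1 and PC2 and on PC3 and PC4 (1000 most variable genes), coloured by group, with the 3 libraries that stood apart named. Groups 11 and 17 are mixed on PC1, PC2 and PC4, while most libraries of group 11 lie at lower PC3 scores than those of group 17, with medians of -5.55 and 0.67.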

How the data were processed

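Kidney RNA of 27 F2 males was sequenced by the authors as stranded mRNA libraries. They ran Salmon 0.14.0 and collected its transcript estimates by gene in tximport. The deposited values are thus estimated counts per Ensembl gene, rounded to whole numbers and not normalized. The deposited average transcript lengths per gene, in bases, served only as offsets in an alternative. Of 31998 identifiers, 8217 had no kidney count.

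Calculations used R 4.3.3, edgeR 4.0.16, DESeq2 1.42.0 and limma 3.58.1. A gene was tested where the counts of some group summed to more than 10. All 27 libraries were fitted with a mean per group after TMM scaling, and groups 17 and 11 were compared with the quasi-likelihood F test, called at a Benjamini-Hochberg adjusted p under 0.1. Standard errors and 95% intervals come from that fit. Exact permutation tests, two-sided, compared mean log2(normalized count + 1) over all 1716 splits into 6 and 7. Liver values come from a fit of 83 libraries and 12 group means. The scripts were tested on simulated data.

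Named genes are those called, the 8 in each direction with the smallest p and a mean normalized count over 50, Zbtb16, the 4 smallest and 4 largest p of the study's kidney list, and for each list the most abundant member and that of smallest p. Identifiers without a symbol are limited to 2 higher and 2 lower. Beyond this rule, the other members of the glucocorticoid, immediate early, clock and injury lists and list members at an unadjusted p under 0.05 were named after their values were seen, as were Dcun1d2, Krt80, Ski and the gene that led PC1. Symbols were taken only from the study's own gene lists, which pair 1483 of 1568 identifiers, so 1471 tested genes have a symbol. The comparison, the lists and the tests were chosen with earlier results of these data known.

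Same-numbered males of groups 11 and 17 did not deviate together (6 pairs, r from -0.335 to 0.215, 2 over 0.1). Identical libraries were looked for, and 0 pairs were found. Alternatives changed the tool, scaling, filter, block, unit and libraries. The result of 1 gene list is not reported here.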

Additional observations from a re-analysis of the deposited data

Results flagged for a closer look

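Of 148 checks for a single library far from the others of its group, 20 (13.5%) passed the limit, where chance gives about 1 in 20. Male 2 of group 11 had that group's lowest value for Pptc7 (normalized count 1368), Ppargc1a (1067), Lrp2 (79404), Zhx3 (2448), the summed CPM of proximal tubule markers (2794), the median correlation with other libraries (0.964) and PC2 (-13.0). Male 1 of group 17 was that group's lowest for Tet2 (392), Kdm6b (906), genes detected (18061), the summed CPM of proximal tubule markers (2739) and the median correlation (0.947), and the highest for Ncs1 (1371). The proximal tubule list had 1 member with an identifier, Lrp2, so its CPM and the normalized count of Lrp2 are 1 measurement on 2 scales. The remaining values were low values of Frzb in male 7 (1053), Nolc1 in male 10 (1605) and Utp4 in male 9 (705) of group 17 and of Dcun1d2 in male 9 of group 11 (296), and high values of Ahr (764) and Havcr1 (387) in male 4 and Map3k6 in male 5 (255) of group 11.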

How the results depend on the processing

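In 28 of 31 alternatives no gene was called between groups 17 and 11, and leaving out each library in turn gave 0 throughout, with 794 (without male 10 of group 11) to 1548 (without male 2 of group 11) genes at an unadjusted p under 0.05. The alternatives include an adjusted threshold of 0.05 and an added limit of 50 on the mean normalized count. Both only cut the main result further, so they could give nothing but 0. DESeq2 called 3 genes, 1 of them at 0 counts in 7 of 7 libraries of group 11 and 4 of 6 of group 17. The fit with F0 and F1 treatment as terms called 2 and necropsy date as a block 1. DESeq2 called 8 genes in group 20 against 14, 5 of them at 0 counts in 19 to 23 of the 27 libraries, and 1 in the interaction, at 0 counts in 19. With the replicate block 0 genes were called, and 627 had an unadjusted p under 0.05. The numbers did not pair the males. PC1 differed by -0.10 with the 500 most variable genes, PC3 by -3.09 with all tested genes and by 8.495 with the 13 libraries alone, and PC4 by -4.94 on log2 CPM and -4.49 with all tested genes. Signs and numbers of components are arbitrary between separate decompositions, so these values say nothing of dependence on the processing. Of 1885 log2 fold changes of 65 genes under alternatives, 16 changed direction, in 7 genes. Leaving out single libraries gave -0.115 to 0.0097 for Kdr, -0.21 to 0.0015 for Ppargc1a, -0.14 to 0.028 for Lrp2, -0.027 to 0.097 for Nphs1 and -0.94 to 0.16 for Havcr1. Kdr was at 0.045 without necropsy date 1 and 0.042 without date 4, Nphs1 at -0.071 without date 3 and -0.080 with F0 and F1 terms, Ahr at -0.043 without date 1, Havcr1 at 0.36 without date 2 and 0.12 with F0 and F1 terms, and Lcn2 at 0.0085 with those terms.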
